A study of Homo sapiens with 6 samples.

Results

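Myc peaks at the promoters of long noncoding RNA (lncRNA) genes were compared between parental MDA-MB-231 cells and TKO cells. A peak was counted when its summit lay within 1 kb of a basic GENCODE transcription start site (TSS) of an lncRNA gene and more than 1 kb from every basic protein-coding TSS. This gave 3660 peaks of 62539 in the 4 Myc lists. MDA-MB-231 is an established human triple-negative breast cancer line. TKO cells are the same line after CRISPR/Cas9 knockout of TXNIP, the gene of thioredoxin interacting protein, with guides of the GeCKO library, and knockout clones were grown from single cells. The study asked whether loss of TXNIP changes Myc binding across the genome. It made 2 Myc chromatin immunoprecipitation sequencing (ChIP-seq) libraries from parental cells and 2 from TKO cells, all with the same Myc antibody. Input chromatin of each cell line is the remaining 2 samples, which were not analysed here on their own. Recovered depth was 26.4 and 22.2 M reads for parental replicates 1 and 2, and 19.9 and 13.0 M for TKO replicates 1 and 2. Peak lists of Myc hold no readout of TXNIP or of the cell type, so neither label was checked against the data. How many TKO clones the libraries came from is not stated, and a clone and the knockout cannot be told apart.

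Myc is a basic helix-loop-helix leucine zipper factor that binds DNA as a dimer with Max, with highest affinity at the E-box CACGTG. It occupies active promoters of protein-coding genes and also those of noncoding transcripts. LncRNAs are transcribed by RNA polymerase II, and many are capped, spliced and polyadenylated, but they do not encode proteins. Some carry small nucleolar RNAs (snoRNAs), which guide modification of ribosomal RNA, or microRNAs in their introns and are called host genes. Others are known only by an identifier.

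Sequences at the summits show what these promoters hold. Each is the summit base of GRCh37 (hg19), plus strand, 5′ to 3′, with 50 bases to either side. Capitals mark an E-box, CACGTG. They also mark an E-box variant, which reads CACGCG on its own strand and appears as CGCGTG where it lies on the opposite strand. The third motif in capitals is that of AP-1, TGAGTCA on its own strand, which appears as TGACTCA where it lies on the opposite strand. The first set comes from the 8 strongest promoter sites with a peak in all 4 libraries. It is shown because it includes sites with and without an E-box. ENSG00000286874 and MID1IP1-AS1, also among the 8, held none of these motifs and are not shown. The set therefore says nothing of how common the motifs are. DANCR has an E-box and an AP-1 motif in the same window, and SNHG26 has an E-box and its variant.
SNHG15 (chr7:45026065-45026165): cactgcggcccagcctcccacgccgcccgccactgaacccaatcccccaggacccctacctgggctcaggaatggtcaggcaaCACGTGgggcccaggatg
DANCR (chr4:53579133-53579233): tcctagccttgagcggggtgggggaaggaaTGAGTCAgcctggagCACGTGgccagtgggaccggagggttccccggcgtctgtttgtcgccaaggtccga
SNHG26 (chr7:22893876-22893976): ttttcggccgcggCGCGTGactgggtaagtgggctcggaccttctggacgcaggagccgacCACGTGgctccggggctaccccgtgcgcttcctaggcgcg
ENSG00000258922 (chr15:93352574-93352674): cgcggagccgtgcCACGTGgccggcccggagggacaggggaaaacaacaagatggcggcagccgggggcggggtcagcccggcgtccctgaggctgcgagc
SNHG17 (chr20:37063856-37063956): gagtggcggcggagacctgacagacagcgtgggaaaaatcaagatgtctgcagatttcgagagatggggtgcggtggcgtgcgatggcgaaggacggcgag
SNHG7 (chr9:139622655-139622755): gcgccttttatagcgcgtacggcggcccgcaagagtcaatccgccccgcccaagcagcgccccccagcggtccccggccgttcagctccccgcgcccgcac
SNHG17 and SNHG7 held none of these motifs in the window, which says only that these letters are absent there. The next set comes from the 8 strongest promoter sites with a peak in both TKO libraries but no parental library. Only those with one of these motifs are shown, so the set says nothing of how common the motifs are. The others, at LPAL2, LINC02014, LINC02980 and LINC00240, held none of them.
ENSG00000287342 (chr7:372692-372792): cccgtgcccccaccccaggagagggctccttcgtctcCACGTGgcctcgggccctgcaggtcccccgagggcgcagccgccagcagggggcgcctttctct
ENSG00000290951 (chr7:74988606-74988706): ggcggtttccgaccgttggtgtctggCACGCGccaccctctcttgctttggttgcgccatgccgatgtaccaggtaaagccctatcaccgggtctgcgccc
MIR762HG (chr16:30886490-30886590): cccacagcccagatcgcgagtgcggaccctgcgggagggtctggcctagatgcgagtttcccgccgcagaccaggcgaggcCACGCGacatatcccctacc
ENSG00000267764 (chr18:46361190-46361290): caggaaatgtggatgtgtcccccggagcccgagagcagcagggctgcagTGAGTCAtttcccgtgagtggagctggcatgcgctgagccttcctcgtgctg
The last sequence comes from 1 of the 2 promoter sites with a peak in both parental libraries and in neither TKO library, and stands for that site alone.
LINC01119 (chr2:47082408-47082508): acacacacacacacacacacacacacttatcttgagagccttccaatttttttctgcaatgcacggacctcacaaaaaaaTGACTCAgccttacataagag

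More lncRNA promoter peaks were called in TKO cells, in proportion to the longer TKO lists. Parental replicates 1 and 2 had 217 and 349, and TKO replicates 1 and 2 had 1569 and 1525. Both TKO lists lay above both parental lists. On average there were 283 ± 93.3 (SD, n = 2) and 1547 ± 31.1 (SD, n = 2), a ratio of 5.47. An exact two-sided permutation test returned p = 0.333, and 2 libraries against 2 can give no smaller p. Without parental replicate 2 the ratio was 7.13. Relative to list length the cell lines overlapped. As a share of the list they were 5.83% and 6.10% (parental) and 5.77% and 5.89% (TKO), a difference of -0.14 percentage points with an exact permutation p = 0.667. When each list was cut to its 3720 strongest peaks, there were 217, 239, 229 and 224 lncRNA promoter peaks in the same order, a ratio of 0.993.

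**Figure D1:**
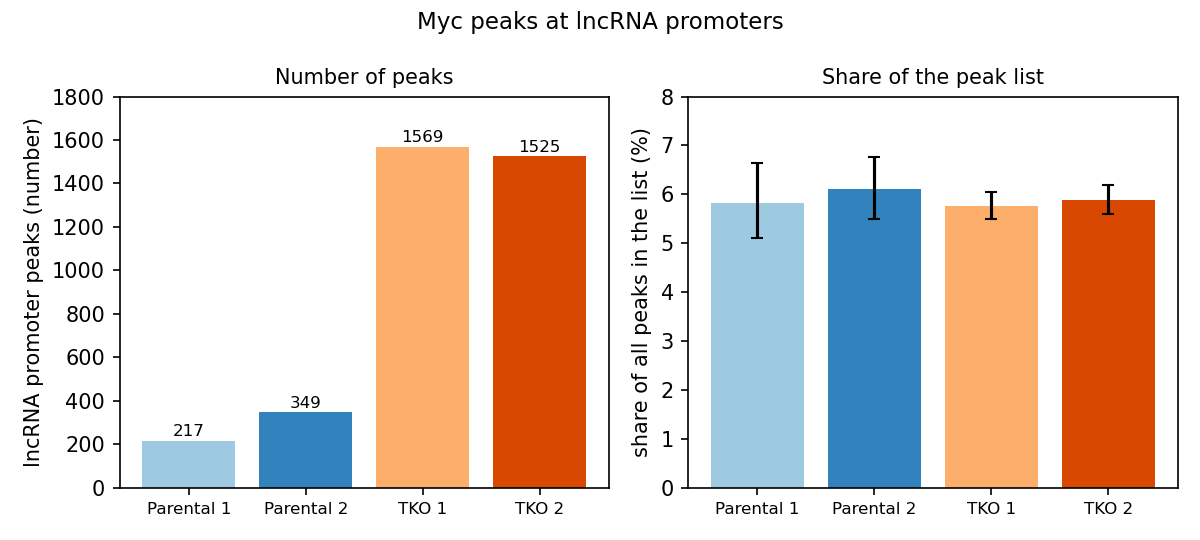
Number of lncRNA promoter peaks (left) and their share of all peaks in the list in percent (right) in parental replicates 1 and 2 and TKO replicates 1 and 2, with exact 95% binomial intervals on the shares. The numbers were 217 and 349 against 1569 and 1525, while the shares all lay between 5.77% and 6.10%.

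Counted by gene, 238 and 378 of 18702 annotated lncRNA genes were bound at a promoter in parental replicates 1 and 2, and 1413 and 1397 were in TKO replicates 1 and 2. These are 1.27%, 2.02%, 7.56% and 7.47% of lncRNA genes, a ratio of 4.56 between the means. Of the 201 genes with a peak in both parental libraries, 192 had a peak in both TKO libraries (95.5%). A further 772 genes had a peak in both TKO libraries but no parental library, which is 67.7% of the 1140 with a peak in both TKO libraries. For protein-coding genes the same shares were 99.5% and 65.8%. The shares of all genes that were bound were higher for protein-coding genes, at 12.2%, 12.9%, 49.1% and 49.7%. The 18702 lncRNA genes include some with a TSS within 1 kb of a coding TSS, where the rule leaves peaks uncounted. Of the 15384 with every TSS over 1 kb from a coding TSS, 1.44%, 2.27%, 8.38% and 8.21% were bound.

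The summits gathered at the lncRNA TSS in every library. The 200-bp bin with most summits was next to the TSS and held 61, 99, 369 and 352 summits in parental replicates 1 and 2 and TKO replicates 1 and 2. Bins 1 to 5 kb away held on average 4.05, 9.05, 41.0 and 38.8. The crowding was thus 15.1 and 10.9 times the flank in parental cells and 8.99 and 9.08 times in TKO. Summits within 250 bp of the TSS made up 59.3 ± 0.433% (SD, n = 2) of lncRNA promoter peaks in parental cells and 51.3 ± 0.203% (SD, n = 2) in TKO. The median distance to the TSS was 180 ± 3.54 bp and 238 ± 2.83 bp (SD, n = 2 each). Distance to the TSS was part of the rule that chose these peaks, so both measures are a description, with no test. At the edge of the 1-kb limit, the TKO lists had 99 and 90 summits 800 to 1000 bp downstream of a TSS, just inside, and 61 and 80 at 1000 to 1200 bp, just outside. Upstream, they had 58 and 59 at 800 to 1000 bp and 63 and 56 at 1000 to 1200 bp.

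**Figure D2:**
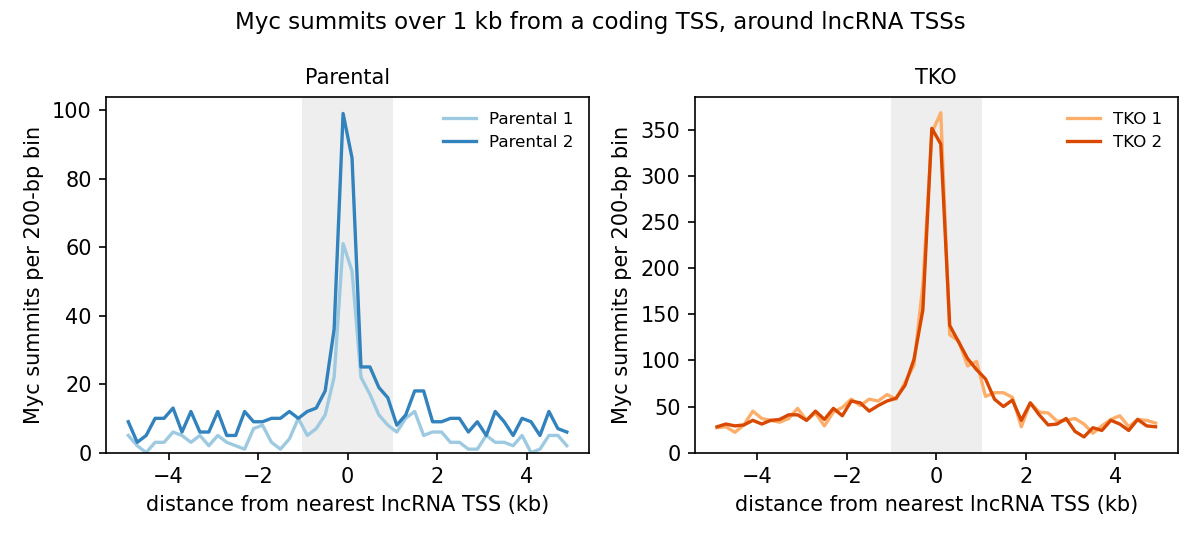
Number of Myc summits per 200-bp bin against distance from the nearest lncRNA TSS in kb (positive is downstream), for summits over 1 kb from a coding TSS. Parental libraries are on the left, TKO libraries on the right with their own axis, and grey marks the 1-kb limit. The highest bin in each library adjoins the TSS, with 61 and 99 summits in parental cells, then 369 and 352 in TKO.

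Per megabase, lncRNA promoters held fewer Myc peaks than coding promoters and more than the rest of the genome. Promoter windows of lncRNA genes covered 36.6 Mb, or 1.28% of the genome, and held 5.94 and 9.55 peaks per Mb in parental cells, then 42.9 and 41.7 in TKO. Coding promoters held 41.6, 43.6, 222 and 218 peaks per Mb, and the rest of the genome held 0.457, 1.09, 4.96 and 4.56. Against the rest of the genome, lncRNA promoters were 13.0, 8.73, 8.66 and 9.15 times denser. Parental replicate 1, with the shortest list, had the highest ratio.

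In base composition lncRNA promoter peaks lay between coding promoter peaks and peaks elsewhere. Averaged over the 4 libraries, GC content within 100 bp of the summit was 59.9%, against 63.2% at coding promoters and 55.4% elsewhere. The difference from coding promoters was -3.28 ± 0.587 percentage points (SD over n = 4 libraries) and was negative in 4 of 4 libraries. An exact sign-flip permutation test over libraries returned p = 0.125, and 4 libraries can give no smaller p. CpG-rich summits, with GC of at least 50% and an observed to expected CpG ratio of at least 0.6, were 47.5% of lncRNA promoter peaks, 80.6% of coding promoter peaks and 12.6% of peaks elsewhere. Peaks at lncRNA promoters were narrower than those at coding promoters, by 34.6 ± 12.9 bp in the median (SD, n = 4 libraries).

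The shares of lncRNA and coding promoter peaks with an E-box within 50 bp of the summit differed by less than the spread between libraries. The share was 21.2% and 18.1% of lncRNA promoter peaks in parental replicates 1 and 2, and 8.41% and 7.93% in TKO replicates 1 and 2. Windows 1 kb from the same summits held an E-box in 1.66% to 2.30% of cases, and 1.81% of 23380 windows of the same length centred on lncRNA TSSs far from coding TSSs did. The E-box share minus that of coding promoter peaks was -1.02, -0.43, 0.24 and 0.66 percentage points in the 4 libraries, a mean of -0.13 with an exact sign-flip permutation p = 0.75. The TKO lists had the lower E-box shares, at 8.17 ± 0.338% against 19.6 ± 2.22% (SD, n = 2 each, exact permutation p = 0.333). In lists cut to 3720 peaks the shares of lncRNA promoter peaks were 21.2%, 20.1%, 23.1% and 17.9%, and the cell lines overlapped. E-box promoters also had the stronger peaks. Their median percentile of fold within the list was 61.7, 58.8, 80.2 and 75.04 in the 4 libraries, against 53.7, 48.6, 48.6 and 49.6 for lncRNA promoter peaks without an E-box.

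AP-1 motifs, bound by Fos and Jun family dimers, were more frequent at lncRNA than at coding promoter summits. They lay within 50 bp of 10.1% and 12.6% of lncRNA promoter summits in parental cells, then 8.09% and 6.69% in TKO. At coding promoters the share was 1.52%, 2.30%, 1.74% and 1.59%, and elsewhere it was 17.9%, 21.7%, 14.8% and 11.6%. The mean difference from coding promoters was 7.59 ± 2.32 percentage points (SD, n = 4 libraries), positive in 4 of 4, with an exact sign-flip permutation p = 0.125. The AP-1 motifs were in the CpG-poor promoters. In CpG-poor lncRNA promoter peaks the share was 18.1%, 19.7%, 13.7% and 11.1%, and in CpG-rich ones 2.68%, 3.31%, 1.65% and 2.02%. The motif was in 2.19% of the windows on lncRNA TSSs. The ETS motif CCGGAAGT went the other way, at a mean of 1.80% of lncRNA and 3.36% of coding promoter summits (exact sign-flip permutation p = 0.125). It was in 0.599% of the windows on lncRNA TSSs. All motifs were searched on both strands.

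**Figure D3:**
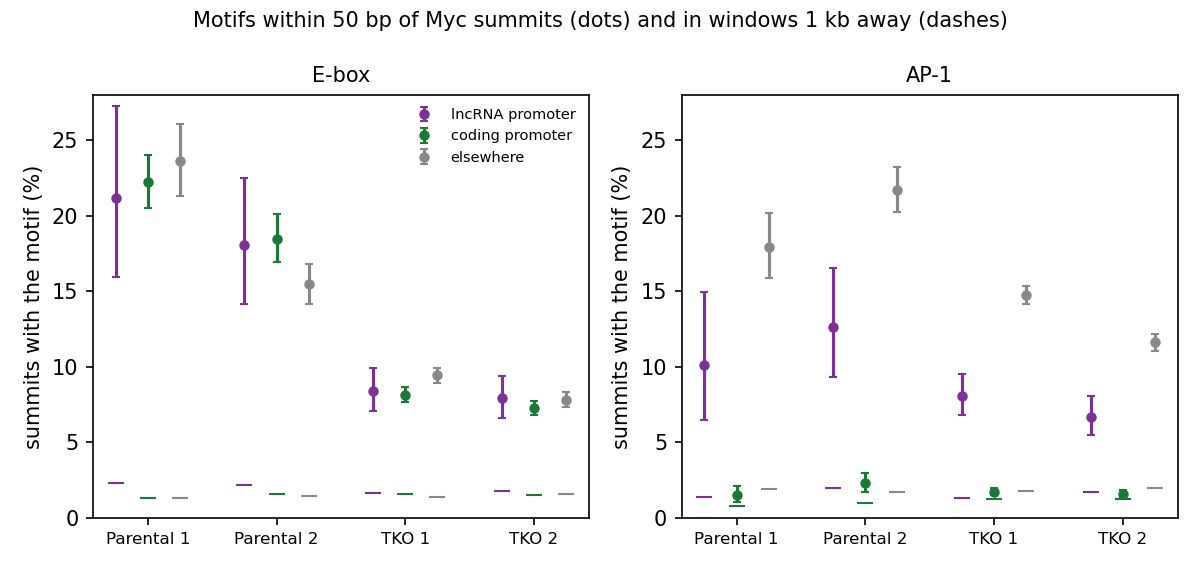
Share of Myc summits in percent with an E-box (left) or AP-1 motif (right) within 50 bp, in the 4 libraries, for lncRNA promoters, coding promoters and peaks elsewhere, with exact 95% binomial intervals that cover counting error only. Short dashes give the share in windows 1 kb from the summit. E-box shares of lncRNA and coding promoters lie together in each library, and AP-1 shares of lncRNA promoters lie between 6.69% and 12.6%, above coding promoters and below peaks elsewhere.

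Peaks of the 4 lists that overlapped by at least 1 bp were merged into 33436 sites, of which 1867 were lncRNA promoter sites by their strongest peak. At 168 of them all 4 libraries had a peak (shared), at 814 both TKO and no parental library did (TKO-only), at 2 both parental and no TKO library did (parental-only), and the remaining 883 were partial. Of the partial sites, 154 had peaks in both TKO libraries and 1 parental library, and 686 had a peak in 1 TKO library alone. Among the 1136 lncRNA promoter sites with a peak in both TKO libraries, 71.7% were TKO-only (exact 95% binomial interval 68.9% to 74.3%). Over sites of all kinds this share was 72.5%, and at coding promoters it was 71.0%. Of the 176 sites in both parental libraries, 95.5% were also in both TKO libraries (91.2% to 98.0%), against 94.8% over sites of all kinds. At coding promoters it was higher, at 99.5% (99.0% to 99.8%). Both shares of lncRNA promoter sites were near those of all sites in the full lists. The TKO-only share minus that of coding promoters was 0.661 percentage points in the full lists and 8.26 in lists cut to 3720 peaks. It was -2.39 without parental replicate 1 and 5.07 without parental replicate 2.

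Shared sites were the strong ones, at lncRNA promoters as among sites of all kinds. At lncRNA promoters their median percentile of fold in the TKO lists was 90.1, and that of TKO-only sites was 49.4. Over sites of all kinds the medians were 91.6 and 50.0. An E-box was in the window of 21.4% of shared and 7.002% of TKO-only lncRNA promoter sites. At coding promoters the shares were 21.7% and 5.64%. Among lncRNA promoter sites in the strongest 10% of TKO peaks, 39 of 155 sites in replicate 1 and 48 of 156 in replicate 2 were TKO-only, or 25.2% and 30.8%. At coding promoters the shares were 23.2% and 24.1%, and elsewhere 23.3% and 28.02%, so the lncRNA shares were near those of other strong sites. Replicates overlapped in part. Of lncRNA promoter peaks, 83.4% in parental replicate 1 and 50.7% in parental replicate 2 overlapped a peak of the other replicate, and 76.2% and 77.3% did so in TKO replicates 1 and 2.

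By location, 37.9% of the 1867 summits lay in an exon of the lncRNA gene, 22.9% in an intron, and 39.2% upstream or otherwise outside it. A protein-coding gene also covered the summit at some sites, in an exon at 115 and in an intron at 363. By name, 1035 sites (55.4%) belonged to genes known only by an Ensembl identifier, 314 to LINC genes and 231 to antisense genes. Host genes of snoRNAs and microRNAs were 52 sites, and pooled they were most often shared. Of 39 host gene sites with a peak in both TKO libraries, 18 were shared (46.2%, exact 95% binomial interval 30.1% to 62.8%). The share was 10.4% of LINC sites (6.45% to 15.6%) and 14.8% of sites with an identifier only (12.1% to 17.8%). Over all lncRNA promoter sites it was 14.8%, and over sites of all kinds 14.1%. The 2 kinds of host differed. Of 16 listed snoRNA host genes with a peak in both TKO libraries, 14 had one in all 4 libraries. Of 15 such listed microRNA host genes, 3 did and 10 had no parental peak.

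At shared sites the recovered reads at the summit were compared as reads per 1000000 library reads (RPM). The median over the 168 lncRNA promoter sites was 1.32 and 1.44 in parental replicates 1 and 2 and 3.18 and 3.53 in TKO replicates 1 and 2. The mean log2 value was higher in TKO at 98.8% of the 168 sites and at 99.6% of shared sites of all kinds. In a limma fit over all 2631 shared sites with Benjamini-Hochberg adjustment, 164 of the 168 were higher in TKO and 1 was lower at an adjusted p below 0.05. Over all shared sites 97.1% were called higher and 0.114% lower, so the count at lncRNA promoters is near that of shared sites in general. The median log2 TKO to parental difference was 1.18 (interquartile range 0.94 to 1.41), or 2.27-fold. It was 1.36 at coding promoters, 1.07 elsewhere and 1.27 over all shared sites. Sites with an E-box had a median of 1.199 (n = 36) and sites without had 1.17 (n = 132). Each library was then centred on its median over all shared sites. After that, no lncRNA promoter site was called higher by limma (7 at an unadjusted p under 0.05) and 9 were called lower. Over all 2631 shared sites 30 were called higher and 77 lower, and over 1542 coding promoter sites 24 and 5. The increase was thus largely common to shared sites. The centred median was -0.0707 at lncRNA promoters and 0.104 at coding promoters. On log2 of the deposited fold, 60.1% of the 168 were called higher and 3 sites lower. Over all shared sites 69.2% were called higher and 13 sites lower, and at coding promoters 78.7% were higher. Values also divided by the extension length of the library gave 140 (83.3%) higher and 2 lower, with a median log2 of 0.79. By that scaling 87.0% of all shared sites and 95.8% of those at coding promoters were higher.

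**Figure D4:**
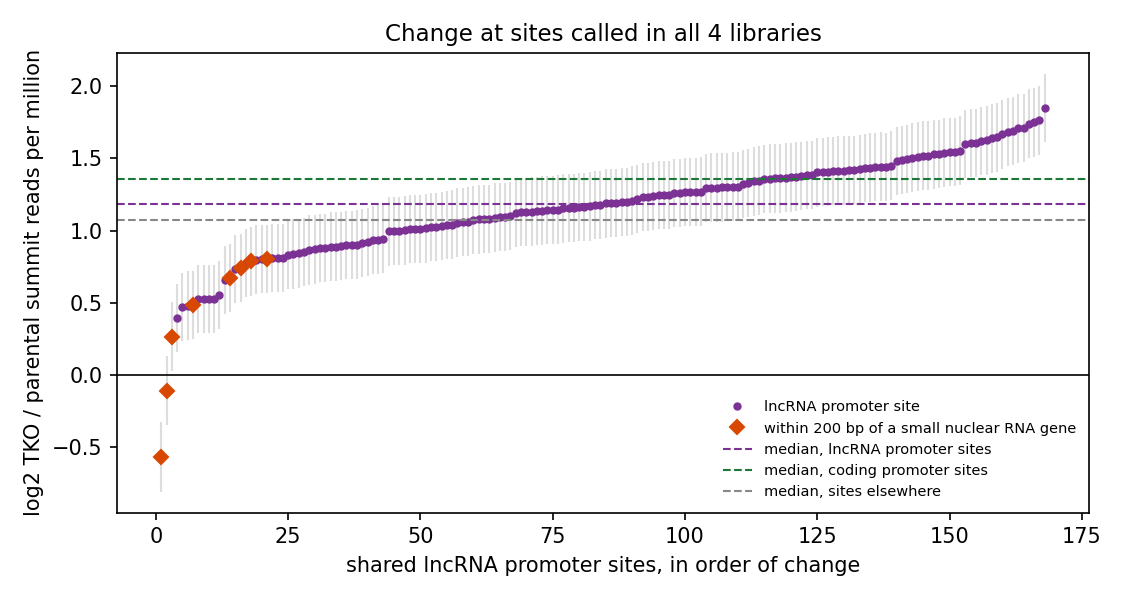
Log2 TKO to parental difference in summit RPM (reads per 1000000) at the 168 shared lncRNA promoter sites, in order, with standard errors of the limma fit (n = 2 libraries per cell line). Dashed lines mark the medians of 1.18 at lncRNA promoters, 1.36 at coding promoters and 1.07 elsewhere, and diamonds mark the 8 sites within 200 bp of a small nuclear RNA gene, which all lie below the lncRNA median.

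Of the 8 strongest shared promoters, 5 were those of snoRNA host genes. They were picked by their fold in the TKO lists, so their TKO levels are a description. At SNHG15, a host of snoRNAs, RPM values were 5.03 and 5.77 in parental replicates 1 and 2 and 11.1 and 15.0 in TKO replicates 1 and 2. Its summit was in an exon, 318 bp downstream of the TSS, with the E-box 33 bp from the summit. The groups did not overlap, and the log2 difference was 1.26 ± 0.24 (SE). After centring on all shared sites it was 0.0078 (limma adjusted p = 0.99). At SNHG17 the values were 4.69 and 4.91 against 11.3 and 12.3 without an E-box in the window. The log2 difference was 1.30 ± 0.24, or 0.046 after centring (limma adjusted p = 0.93). Promoters with and without an E-box were thus both among the strongest.

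DANCR, a snoRNA host named for its part in holding back differentiation, had 2.04 and 1.44 RPM in parental cells, then 4.81 and 5.98 in TKO. Its log2 difference was 1.64 ± 0.24, or 0.39 after centring on all shared sites (limma adjusted p = 0.35). SNHG7 had 2.61 and 2.07 against 5.06 and 6.75, and SNHG26 had 2.31 and 1.85 against 4.86 and 5.98. In each of these the TKO libraries lay above the parental ones. Outside the host genes, ENSG00000286874 had 2.35 and 1.53 against 4.91 and 4.83. ENSG00000258922, whose summit lies in an intron of FAM174B, had 2.42 and 1.98 against 5.06 and 5.14. MID1IP1-AS1, antisense to MID1IP1, had 1.51 and 1.40 against 4.26 and 4.60. These identifiers have no role known here.

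The strongest TKO-only promoters were weaker than the strongest shared ones. ENSG00000287342, with an E-box 13 bp from the summit, had 2.91 and 3.14 RPM in TKO replicates 1 and 2. LPAL2, a noncoding relative of the apolipoprotein(a) gene LPA, had 2.21 and 3.84, and ENSG00000267764, with an AP-1 motif at the summit in an intron of CTIF, had 3.21 and 2.91. The remaining named TKO-only sites, at LINC02014, LINC02980, LINC00240, ENSG00000290951 and MIR762HG, lay between 1.96 and 3.37. No peak was called there in parental cells, which gives no level, only one under the threshold of those lists. The parental-only site at LINC01119 was weaker, with 0.908 and 1.04 RPM in parental replicates 1 and 2.

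**Figure D5:**
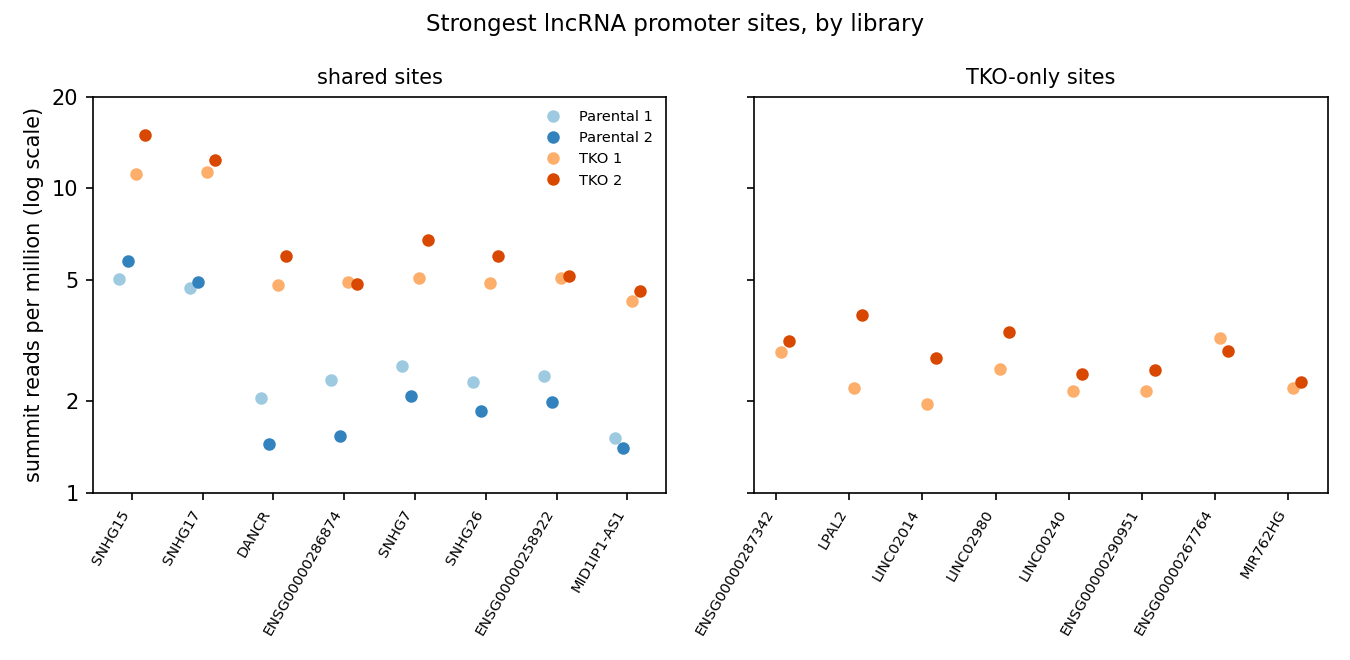
Summit RPM on a log scale in each library at the 8 shared (left) and 8 TKO-only (right) lncRNA promoter sites of highest fold percentile in the TKO lists. TKO points lie above parental points at each of the 8 shared sites, and the TKO-only sites lie between 1.96 and 3.84.

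Of 32 lncRNA genes listed as snoRNA hosts, 15 and 14 were bound at a promoter in the parental replicates and 16 and 17 in the TKO replicates. Unlike lncRNA genes at large, most snoRNA hosts with a peak in TKO already had one in parental cells, and SNHG6 was the 1 gene with peaks in both TKO libraries but no parental library. Of the 15 with no such peak, 12 had a Myc peak that was not counted because it lay within 1 kb of a coding TSS, among them GAS5, SNHG1 and ZFAS1. All 14 hosts with a shared site were higher in TKO by limma (97.1% of all shared sites were), with a median log2 difference of 1.38 against 1.27 over all shared sites. Values ran from 0.83 at SNHG29 to 1.74 at SNHG5. The median was lower, at 1.12, over the 3 shared sites of listed microRNA hosts and at 1.09 over the 6 of listed cancer-studied lncRNAs.

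Of 42 listed microRNA hosts, 3 and 5 were bound in parental replicates 1 and 2 and 16 and 18 in TKO replicates 1 and 2, and 22 had no Myc peak at any of their promoters. MIRLET7A1HG, host of let-7 microRNAs, was shared, with 1.59 and 2.16 RPM in parental cells, then 4.16 and 3.91 in TKO. MIR17HG, host of the miR-17-92 cluster and known as a Myc target, had no peak in parental replicate 1, 0.766 in parental replicate 2, and 1.65 and 1.30 in TKO. MIR762HG, MIR646HG and MIR3142HG had peaks in the TKO libraries alone, at 2.01 to 2.99 RPM.

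Of 53 annotated genes listed as lncRNAs studied in cancer, 6 and 12 were bound in parental replicates 1 and 2 and 25 and 23 in TKO replicates 1 and 2. LINC-PINT, a p53-induced transcript, had 1.29 and 1.35 RPM in parental cells, then 3.26 and 3.22 in TKO. MINCR, a Myc-induced lncRNA by its name, had 1.63 and 2.34 against 4.61 and 6.44, and FIRRE, which organises chromatin in the nucleus, had 2 shared sites. The site in an intron had 1.02 and 1.40 against 1.91 and 2.07, and the site in an exon had 0.833 and 0.947 against 2.26 and 1.46. JPX had peaks in TKO alone, at 2.41 and 2.30, and LINC01116 lacked one in parental replicate 1 only, with 0.992, 2.11 and 2.38 in the other libraries. No Myc peak was found at 21 of these genes, HOTAIR, MEG3 and BCAR4 among them.

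The lowest and highest changes among the 168 shared sites were named after their values were seen. LINC01123 rose most, from 1.32 and 1.31 to 4.71 and 4.76 RPM, a log2 difference of 1.85 ± 0.24 (limma adjusted p = 2.80e-12). At the other end, ENSG00000285646 was the 1 site called lower, with 3.56 and 2.03 in parental cells, then 2.26 and 1.46 in TKO. The groups overlapped, and the log2 difference was -0.57 ± 0.24 (limma adjusted p = 0.0194). The centred difference of this site was -1.82 (limma adjusted p = 0.00115). Its summit, at position 11968305 of chromosome 1, lies inside RNU5E-1, a gene of U5 small nuclear RNA, part of the spliceosome. The next was ENSG00000276216, at -0.11 ± 0.24 (limma adjusted p = 0.651), with its summit inside RNVU1-14, a variant U1 gene. ENSG00000287190, inside RNVU1-6, followed at 0.26 ± 0.24 (limma adjusted p = 0.27). ENSG00000271259, the next lowest, was not within 200 bp of a small nuclear RNA gene. Its log2 difference was 0.39 ± 0.24 (limma adjusted p = 0.0974).

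In all, 8 of the 168 shared lncRNA promoter sites (4.76%) had a summit within 200 bp of an annotated small nuclear RNA gene. The share was 0.912% over all 2631 shared sites, 0.130% at coding promoters and 1.52% elsewhere. Of the 8 sites, 5 were called higher in TKO and 1 lower. The log2 differences of the 8 ran from -0.57 to 0.80 with a median of 0.58, and the median of the other 160 was 1.196. These genes, beside those named, were RNU4ATAC, RNU1-1, RNU1-27P, RNU1-28P and RNU1-4. Reads at RNU1-1 were high in every library, at 7.11, 6.27, 10.6 and 10.7 RPM. U1 and U5 genes have near-identical copies, so where their reads belong is uncertain. Over all kinds of shared site, 24 lay this close to a small nuclear RNA gene, 24 of the 24 were below the median of all shared sites, and 12 were called higher and 2 lower. This grouping was made after the values were seen and was given no test. Of all 1867 lncRNA promoter sites, 11 (0.589%) lay near such a gene, of which 8 were shared, 3 partial and 0 TKO-only. TKO-only sites of other kinds were not counted, so no contrast with them is drawn.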

How the data were processed

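Myc ChIP-seq peak lists of 4 libraries were analysed, grouped by the sample titles into parental (n = 2) and TKO (n = 2). Per the labels and methods, the authors aligned single-end reads to hg19 with Novoalign 3.08.02 and called peaks in each library with MACS2 2.1.1.20160309 against input. The deposited lists give a fold over local background (a ratio), a −log10 p-value and −log10 q-value per peak, and an integer score made from the q-value. The lowest −log10 q was 2.03 to 2.07, so weaker binding is absent from the lists. How duplicates were treated is not given in the sources used here.

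Whole summit reads were solved from the deposited fold and p-value and matched for 100% of peaks in each list (tolerance 0.002 on the −log10 p scale). Depth was recovered with an assumed genome size of 2.7e+09 bases. The extension length, taken as the narrowest peak, was 140 and 151 bp in parental and 182 and 201 bp in TKO lists, and longer extension raises reads per summit. Start sites came from basic transcripts of GENCODE 44 lifted to GRCh37. No peak ended past a GRCh37 chromosome, and 11 mitochondrial peaks had no motif scored.

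Libraries were compared by exact permutation tests, classes within libraries by exact sign-flip tests, and log2 of reads per 1000000 (RPM) at shared sites by limma 3.58.1 (R 4.3.3) with Benjamini-Hochberg adjustment over 2631 sites. Labels call the samples replicates without naming separate cultures, so p-values measure the spread between these libraries, and they do not cover an error in a library's overall scale. Binomial intervals cover counting error only. The text names the 8 shared sites and the 8 TKO-only sites with the greatest mean percentile of fold in the TKO lists, up to 5 parental-only sites ranked by the same measure in the parental lists, and from each gene list the 5 members ranked highest in the TKO lists. One site that this rule picks is not reported here. Other named genes were chosen after their values were seen. Members and lists were chosen with earlier results of these data known. Alternatives were other thresholds, windows, annotation, scalings, a replicate block and each library left out. Steps were tested on simulated data. Calculations ran in Python 3.11.15 with matplotlib 3.10.9, samtools 1.23.1, pysam 0.24.0, pandas 2.3.3, scipy 1.17.1 and numpy 2.4.6.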

Additional observations from a re-analysis of the deposited data

Results flagged for a closer look

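The E-box share of lncRNA promoter peaks minus that of coding promoter peaks was negative in both parental libraries (-1.02 and -0.43 percentage points) and positive in both TKO libraries (0.24 and 0.66). The TKO minus parental difference was 1.18 percentage points. It was picked out because the cell lines had opposite signs, and the difference was not tested. In 4 of 4 libraries the exact 95% binomial interval of the lncRNA promoter share contained the coding promoter share.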

How the results depend on the processing

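Of 123 recomputed values, 108 were counted as unchanged. For ratios and for differences in list share, motifs, GC and fold percentile this meant only that the direction was kept, whatever the size. The TKO-only difference and the median log2 had to move by less than their spread. The rule for the percent of shared sites called higher was wide, and 83.3% by extension scaling counted as unchanged from 97.6%. With lists cut to 3720 peaks, the ratio of lncRNA promoter peaks was 0.993 and the E-box difference from coding promoters was 0.460 points. The TKO-only difference from coding promoters was 8.26 points there (0.661 in the main analysis). In the same cut lists 94 of 94 shared sites were called higher (99.4% over all kinds of site), with a median log2 of 1.30. The E-box difference also changed sign with a TSS window of 500 bp, to 0.853. It ranged from -0.401 to 0.160 with a library left out, and was positive without parental replicate 1. Leaving out a library gave a TKO-only difference of -2.39 to 5.07, a ratio of peaks of 4.43 to 7.13, 77.4% to 91.4% of shared sites called higher (97.6% in the main analysis) and a median log2 of 1.007 to 1.31. A fold of at least 5 left 90 of 94 shared sites called higher (98.4% over all kinds of site), against 164 of 168. Log2 of the deposited fold called 60.1% of the 168 shared sites higher (69.2% over all kinds of site), with a median of 0.772. This left 67 that were not called higher. Scaling by extension gave a median of 0.786. Centring gave 0 called higher by limma (7 at an unadjusted p under 0.05) and a median of -0.0707, because it removes the change common to all shared sites. The cause of the other changes was not tested.

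Replicate numbers were not used as pairs in the main analysis. Deviations from the group mean in parental replicate 1 and TKO replicate 1 had a correlation of 0.0105 over 2631 shared sites. A correlation over sites does not see a shift of whole libraries, so it cannot exclude pairing. With the number as a replicate block, 164 shared sites were called higher (97.6%, against 97.5% over all kinds of site). The median log2 was 1.18 and the ratio of peaks was 5.80.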
